A study of Mus musculus with 5 samples.

Results

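Genes that mark aerocytes, the gas-exchange capillary cells of the lung, were followed through 5 RNA-seq libraries of isolated lung endothelial cells. They were Car4, Fibin, Prx, Emp2, Chst1 and Emcn, 6 of the 49315 genes in the count table, and each was found by its symbol and matched 1 gene identifier. The libraries came from mice given angiotensin II, a peptide hormone that constricts vessels and raises blood pressure, as a chronic infusion of 28 days. One group of 3 libraries was wild type (WT) and the other group of 2 libraries lacked TET2 in the endothelium (TET2KO). TET2 is an enzyme that oxidises methylated cytosine in DNA, and the comparison asked what its absence from endothelial cells did to their transcripts. Every library came from infused mice, so no value speaks to the effect of the hormone itself. The promoter that drove the deletion, the strain, sex and age of the mice, the way endothelial cells were isolated and any pooling of animals are not given in the sources used here. Nor do the labels say that each library came from its own animal, so p-values measure the spread between libraries, which may be partly technical.

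Alveolar capillaries hold a pair of endothelial cell states. Aerocytes are large, thin cells that spread over the alveolar surface where gas is exchanged, and they carry high levels of the membrane-bound carbonic anhydrase encoded by Car4. General capillary cells, marked by genes such as Gpihbp1 and Kit, maintain the vessel and can give rise to aerocytes. None of the 6 genes is expressed by aerocytes alone: Emp2 is also a gene of alveolar type 1 epithelium, Prx of the Schwann cells of nerves, Emcn of capillaries and veins in general, and Car4 of alveolar macrophages in the mouse.

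Total counts per library lay between 27346804 and 35440257, and 18727 genes had enough counts to be tested. WT replicate 2 stood apart on the first principal component, at 90.8 against -50.9 to 7.71 for the other 4 libraries. The fold changes in the authors' deposited table did not follow the labelled groups: over 18019 genes they differed by a median of 0.000157 from the log2 ratio of WT replicate 3 with both TET2KO libraries over WT replicates 1 and 2, and by 0.201 from that of the labelled groups. WT replicate 3 may thus carry a wrong label, or the deposited comparison may have been misgrouped, and the files used here do not settle which. The groups are used as labelled, so every WT mean, SD and comparison with all WT libraries includes WT replicate 3 unless stated, and the fold changes of the 6 genes are also given without it and without WT replicate 2. Tet2 counted over its whole length was at 141, 174 and 131 CPM (counts scaled to library size, here by TMM) in WT, against 139 and 162 CPM in TET2KO, which does not check the label because the deleted exons are not given.

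All 6 aerocyte markers had a higher fitted mean in TET2KO than in WT with TMM scaling, and 3 of the 6 with scaling on endothelial genes, and none passed the test under either. With TMM the difference was 1.2-fold for Car4 and 1.54-fold to 1.75-fold for the other 5. For Fibin, Prx, Emp2, Chst1 and Emcn, both TET2KO libraries lay above every WT library. Of all genes tested, 12.4% had that arrangement, and 41.6% had a log2 fold change above 0. Without WT replicate 2, both TET2KO libraries lay above the remaining WT libraries for all 6, against 20.4% of genes. Without WT replicate 3 they did for 5 of the 6, all but Car4, against 18.9% of genes. The median log2 fold change of the 6 genes was 0.73, against -0.08 over all genes tested, and it was -0.02 against -0.85 when libraries were scaled on 20 endothelial genes. It was 0.54 without WT replicate 2 and 0.81 without WT replicate 3.

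In edgeR's quasi-likelihood test, with p-values adjusted by the Benjamini-Hochberg method, none of the 18727 genes was under 0.05 (0% called), and the lowest adjusted p was 0.740. At an unadjusted p under 0.05 edgeR called 0 of the 6 members and 5.86% of all genes. DESeq2 called 60 genes (0.32%) after adjustment, none of them a member, and 2 members, Prx and Emp2, at an unadjusted p under 0.05, against 6.23% of genes. Unadjusted edgeR calls covered 5 of the 6 members without WT replicate 2, against 10.2% of genes, and 2 of the 6 without WT replicate 3, against 7.63%. In bulk libraries such as these, fewer cells of a type and less RNA per cell cannot be told apart.

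**Figure D1:**
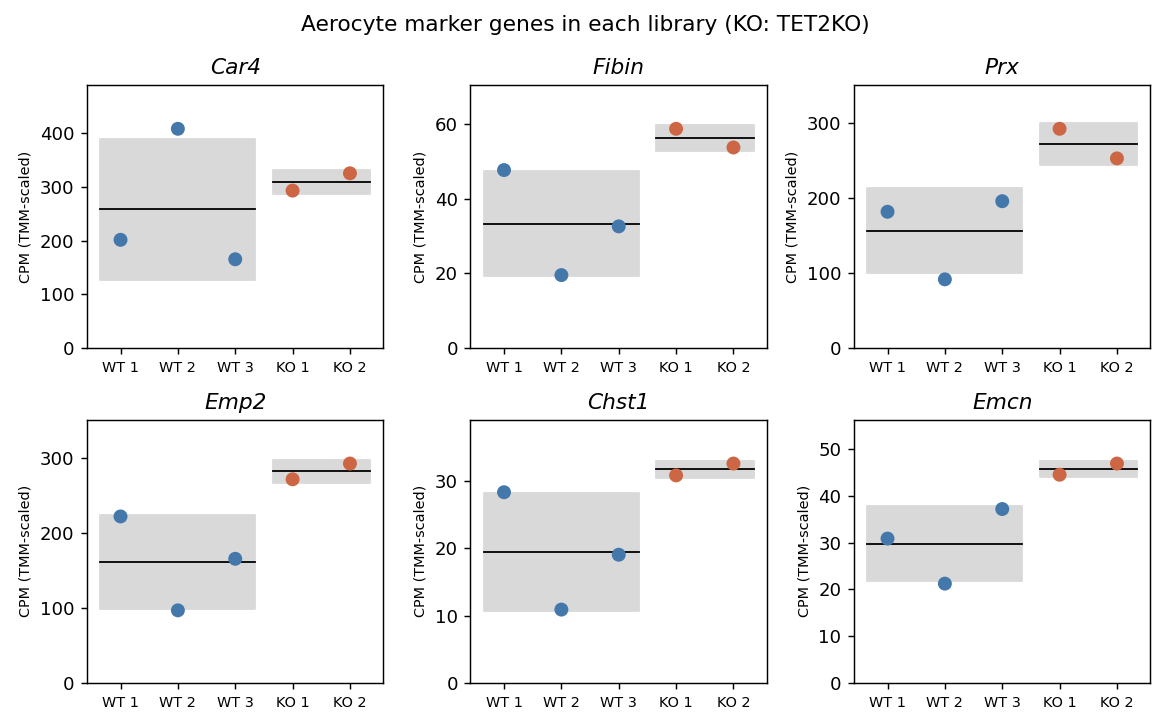
Level of each aerocyte marker in the 5 libraries, in TMM-scaled CPM on a linear axis from 0; points are libraries, lines are group means and grey bands are 1 SD (WT n = 3, TET2KO n = 2). Both TET2KO points lie above every WT point for all genes but Car4, which is highest in WT replicate 2 at 408 CPM.

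Because TET2 acts on methylated cytosine in CG pairs, the 250 bases before the RefSeq start site of 3 markers are shown, since among the 6 they hold the most and the fewest CG pairs. Methylation was not measured in these libraries, so the sequences describe the genes only. They are on GRCm38.p6 and read 5′ to 3′ on the strand of the gene, with CG pairs in capitals: Emp2 at chr16:10313969-10314218 (minus strand), Car4 at chr11:84957504-84957753 (plus strand) and Chst1 at chr2:92600867-92601116 (plus strand). The Chst1 window lies inside the GENCODE span of that gene, in none of its exons, because the RefSeq start is further along the gene.
Emp2: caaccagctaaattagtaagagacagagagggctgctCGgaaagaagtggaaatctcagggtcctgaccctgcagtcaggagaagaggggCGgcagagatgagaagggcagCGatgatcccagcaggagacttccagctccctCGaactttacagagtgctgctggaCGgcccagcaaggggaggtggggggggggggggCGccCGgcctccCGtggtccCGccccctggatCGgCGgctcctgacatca
Car4: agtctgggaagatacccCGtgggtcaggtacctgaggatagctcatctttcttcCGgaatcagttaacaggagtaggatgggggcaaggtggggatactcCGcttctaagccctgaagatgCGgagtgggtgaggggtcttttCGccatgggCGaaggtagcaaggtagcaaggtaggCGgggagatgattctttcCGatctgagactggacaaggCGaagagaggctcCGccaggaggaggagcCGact
Chst1: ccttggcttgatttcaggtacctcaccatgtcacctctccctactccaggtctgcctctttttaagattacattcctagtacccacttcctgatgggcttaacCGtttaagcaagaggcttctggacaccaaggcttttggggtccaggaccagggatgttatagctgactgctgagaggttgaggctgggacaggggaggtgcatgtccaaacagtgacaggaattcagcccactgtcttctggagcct
Emp2 and Car4 each held 11 CG pairs, more than 64.4% of the 32851 RefSeq promoters of this length, and Chst1 held 1, more than 7.87% of them. Of the other markers, Fibin held 7, Prx 2 and Emcn 1, and over all promoters the median was 6 and the quartiles 2 and 16.

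Motifs were counted as exact letters on both strands of the same windows, and no motif searched contains another. GGGCGG was found only in the Emp2 window, with 2 matches, and occurs in 32.7% of all promoters. GGAAGT was found in the Emp2 and Chst1 windows and occurs in 19.7%. ACAAT was found in the Emcn window and occurs in 27.7%. None of the 6 windows held TATAAA, which occurs in 12.4% of all promoters. The same was so of TGTTTAC, which occurs in 3.17%. It was so too of the letters AGATAA, which occur in 9.99%.

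Car4 (ENSMUSG00000000805, GRCm38 chromosome 11, 84957786 to 84966044, plus strand) encodes a carbonic anhydrase anchored on the outer cell surface, which interconverts carbon dioxide and bicarbonate. It stood at 202, 408 and 165 CPM in WT replicates 1 to 3, against 293 and 326 CPM in TET2KO. The groups overlapped, because WT replicate 2 held more Car4 than any other library while WT replicates 1 and 3 held the least; 35% of all genes were highest in WT replicate 2. Group means were 259 ± 131 CPM (SD, n = 3) for WT and 309 ± 22.8 CPM (SD, n = 2) for TET2KO. The difference in log2 was 0.26 (SE 0.41, edgeR adjusted p = 0.904). Without WT replicate 2 the log2 fold change of Car4 was 0.78 (SE 0.15) with an edgeR adjusted p of 0.394, while it was 0.05 without WT replicate 3 and 0.11 without WT replicate 1.

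Macrophage transcripts were also highest in WT replicate 2. The 9 macrophage and monocyte genes measured made up 1.06%, 3.28% and 0.357% of all counts in WT, with 0.542% and 1.01% in TET2KO. Lyz2, the lysozyme gene of myeloid cells, had 5259, 18223 and 1762 CPM in WT beside 2844 and 4625 CPM in TET2KO. Marco, a scavenger receptor of alveolar macrophages, was at 72.4, 484 and 39 CPM in WT, against 58.1 and 68.4 CPM in TET2KO. All 9 genes were highest in WT replicate 2 and lowest in WT replicate 3, as Car4 was. Emp2, by contrast, was lowest in WT replicate 2. The part of macrophage RNA in the Car4 values was not tested.

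**Figure D2:**
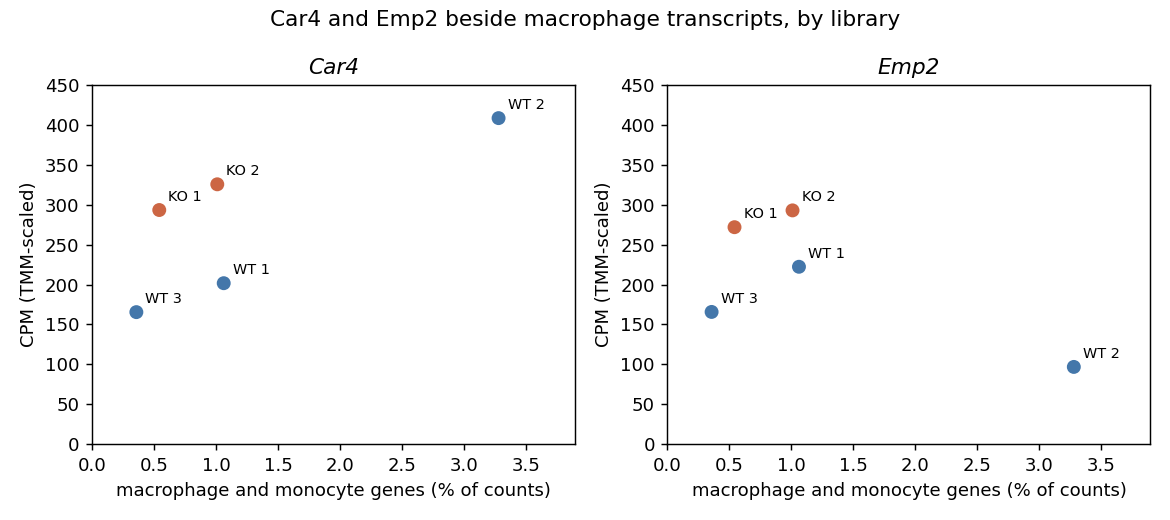
Car4 (left) and Emp2 (right) in TMM-scaled CPM against the share of counts from 9 macrophage and monocyte genes (percent), with 1 point per library (KO, TET2KO). WT replicate 2, at 3.28% macrophage counts, has the highest Car4 (408 CPM) and the lowest Emp2 (96.8 CPM).

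Emp2 (ENSMUSG00000022505, chromosome 16, 10281749 to 10313968, minus strand) encodes a small tetraspan membrane protein of the PMP22 family, known to act on integrins and caveolae at the cell surface. Its level was 222, 96.8 and 166 CPM in WT, against 272 and 293 CPM in TET2KO. The lower TET2KO library was 1.22 times the highest WT library, and the WT libraries themselves spread over 2.29-fold. Group means were 162 ± 62.8 CPM (SD, n = 3) for WT and 282 ± 14.9 CPM (SD, n = 2) for TET2KO. The difference in log2 was 0.81 (SE 0.35, edgeR adjusted p = 0.864), with 0.57 without WT replicate 2 and 0.86 without WT replicate 3.

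Alveolar type 1 cells, which lie against aerocytes and also express Emp2, were represented in every library. Their defining gene Ager, the receptor for advanced glycation end-products, was at 22.2, 18.7 and 19 CPM in WT, against 29.4 and 55.8 CPM in TET2KO. Of the 12 type 1 genes measured, 11 had a log2 fold change above 0 with TMM scaling (median 1.10) and 9 with endothelial scaling (median 0.34). The TMM median was 0.65 without TET2KO replicate 2. The list made up 0.037% to 0.0591% of counts in WT and 0.0908% and 0.0993% in TET2KO, most of it from Clic5 and Vegfa. Without that pair, chosen after values were seen, the other 10 genes made up 0.00928% to 0.012% in WT and 0.0134% and 0.0232% in TET2KO. Clic5, an intracellular chloride channel gene on the list that endothelium also expresses, was at 152, 127 and 209 CPM in WT, against 315 and 317 CPM in TET2KO. TET2KO replicate 2 was well above TET2KO replicate 1 in Ager, and close to it in Emp2 and Clic5. The part of type 1 cells in the Emp2 values was not tested.

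Emcn (ENSMUSG00000054690, chromosome 3, 137341067 to 137432185, plus strand) encodes endomucin, a sialic acid-rich glycoprotein of the capillary and venous surface that limits leukocyte adhesion. It was at 30.9, 21.3 and 37.2 CPM in WT, against 44.6 and 47 CPM in TET2KO. Both TET2KO libraries were above all WT libraries, and WT replicate 2 was lowest. Among the 6 genes Emcn had the smallest spread within WT, 1.75-fold from lowest to highest, with means of 29.8 ± 8.05 CPM (SD, n = 3) for WT and 45.8 ± 1.69 CPM (SD, n = 2) for TET2KO. The difference in log2 was 0.62 (SE 0.26, edgeR adjusted p = 0.864), with 0.45 without WT replicate 2 and 0.85 without WT replicate 3. Emcn had the smallest unadjusted edgeR p of the 6, 0.0555, which ranked 1196 among the genes tested.

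Prx (ENSMUSG00000053198, chromosome 7, 27499324 to 27520214, plus strand) encodes periaxin, a PDZ-domain scaffold best known from the myelin sheath, where it binds the dystroglycan complex through DRP2. Its level was 181, 91.5 and 195 CPM in WT, against 292 and 252 CPM in TET2KO. WT replicates 1 and 3 lay close together, WT replicate 2 lay far below them, and both TET2KO libraries lay above all 3. Group means were 156 ± 56.4 CPM (SD, n = 3) for WT and 272 ± 27.8 CPM (SD, n = 2) for TET2KO. The difference in log2 was 0.80 (SE 0.34, edgeR adjusted p = 0.864), and it was 0.56 without WT replicate 2 and 1.03 without WT replicate 3.

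The defining Schwann cell genes Sox10, Cdh19 and Foxd3 were at or near 0 in these libraries, with Sox10 at no more than 0.035 CPM and no counts for the other two. Ncmap, a gene of myelinating Schwann cells, was at 0.771 to 1.25 CPM. Egr2, a transcription factor that leukocytes also express, was at 99.6 to 387 CPM. Exons of Prx overlap an antisense gene, Gm15541, which had 123, 59 and 184 counts in WT and 274 and 192 in TET2KO, against 5177, 2707 and 6151 and 9659 and 8059 for Prx. Reads of the pair cannot be told apart without the strand setting of the counting, which is not given in the sources used here.

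Chst1 (ENSMUSG00000027221, chromosome 2, 92599707 to 92615250, plus strand) encodes a Golgi sulfotransferase that adds sulfate to galactose in keratan sulfate and related glycans. It was at 28.3, 10.9 and 19 CPM in WT, against 30.8 and 32.6 CPM in TET2KO. The groups were separated by a narrow margin, with WT replicate 1 just under TET2KO replicate 1, and the WT libraries spread over 2.6-fold. Group means were 19.4 ± 8.72 CPM (SD, n = 3) for WT and 31.7 ± 1.25 CPM (SD, n = 2) for TET2KO. The difference in log2 was 0.71 (SE 0.39, edgeR adjusted p = 0.864), and it was 1.08, 0.45 and 0.73 without WT replicates 1, 2 and 3 in turn.

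Fibin (ENSMUSG00000074971, chromosome 2, 110360917 to 110363183, minus strand) encodes a secreted protein first described in fin bud development. Its level was 47.7, 19.6 and 32.6 CPM in WT, against 58.8 and 53.8 CPM in TET2KO. The WT order was the same as for Emp2 and Chst1, with replicate 1 highest and replicate 2 lowest, and both TET2KO libraries were above it. Group means were 33.3 ± 14.1 CPM (SD, n = 3) for WT and 56.3 ± 3.54 CPM (SD, n = 2) for TET2KO. The difference in log2 was 0.76 (SE 0.37, edgeR adjusted p = 0.864), with 0.52 without WT replicate 2 and 0.78 without WT replicate 3. Fibroblasts, a source of many secreted proteins, were represented by 8 genes, at 0.0043% to 0.0122% of counts in WT and 0.0113% and 0.0101% in TET2KO. Summed, these genes were at 116, 56.1 and 42.3 CPM in WT and 107 and 95 CPM in TET2KO. The part of fibroblast RNA in the Fibin values was not tested.

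On the length-normalised TPM scale, which allows levels of different genes to be compared, Car4 was the most abundant of the 6 in every library, at 286 to 547 TPM in WT and 545 and 604 TPM in TET2KO. Emp2 was next, at 226, 74.1 and 164 TPM in WT and 289 and 311 TPM in TET2KO. Prx followed at 43.2 to 119 TPM in WT and 165 and 191 TPM in TET2KO. Fibin (22.7 to 73.6 TPM in WT), Chst1 (10.7 to 36.9 TPM) and Emcn (10.4 to 23.4 TPM) were the lowest. Within WT the range of Car4 lay above that of Emp2, and each range further down overlapped its neighbour, while in TET2KO the ranges of the 6 genes were separate from one another.

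**Figure D3:**
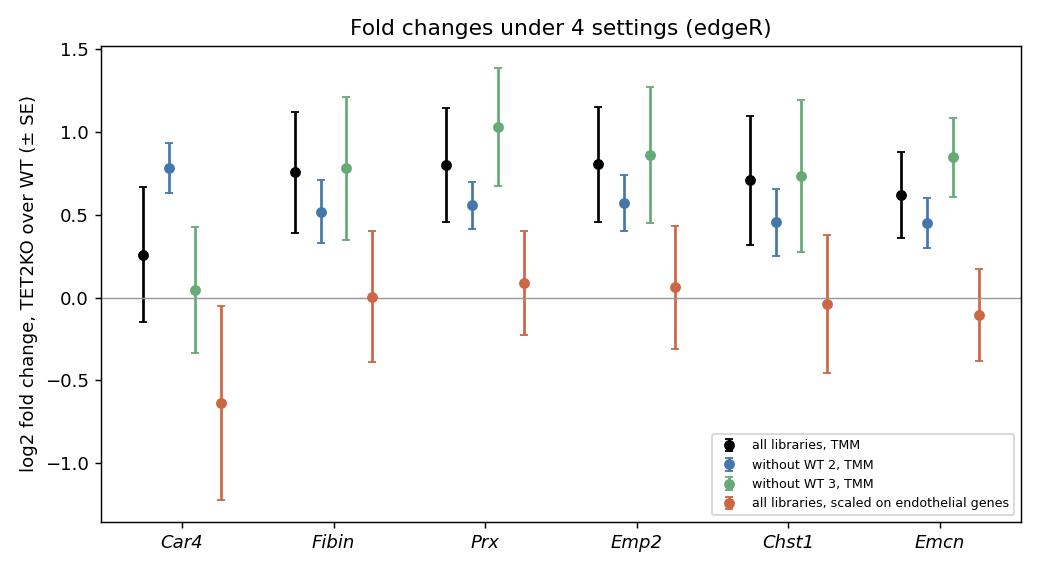
Log2 fold changes of the 6 genes, TET2KO over WT, by edgeR, with bars of 1 SE, for all libraries with TMM scaling, without WT replicate 2, without WT replicate 3, and with libraries scaled on 20 endothelial genes. With TMM scaling all points are above 0, and with endothelial scaling they lie between -0.64 for Car4 and 0.09 for Prx.

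Endothelial transcripts took a larger share of the counts in the TET2KO libraries. The 20 genes of endothelial identity made up 0.455%, 0.299% and 0.606% of counts in WT, with 0.822% and 0.807% in TET2KO, and 19 of the 20 had a log2 fold change above 0 with TMM scaling, 11 with scaling on the list itself. With all libraries their TMM median was 0.75, close to the 0.73 of the aerocyte markers. Without WT replicates 1, 2 and 3 in turn it was 0.72, 0.63 and 1.02, against 1.00, 0.54 and 0.81 for the markers. Cdh5, the adherens junction cadherin of endothelium, was at 628, 484 and 952 CPM in WT, against 1256 and 1163 CPM in TET2KO. Leukocyte transcripts other than those of macrophages were present as well. Ptprc, a gene of leukocytes, was at 1513, 1206 and 1398 CPM in WT, against 1205 and 1163 CPM in TET2KO. The 5 B cell genes made up 0.331%, 0.0808% and 0.409% of counts in WT, with 0.29% and 0.179% in TET2KO. The part of these cells in the endothelial share was not tested.

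The separation of the groups was not seen once each marker was set against endothelial transcripts. Per 100 TPM of the 20 endothelial genes, Emp2 was at 5.87, 3.41 and 3.39 TPM in WT and at 4.21 and 4.74 TPM in TET2KO. For Fibin this ratio was 1.91, 1.05 and 1.01 in WT and 1.38 and 1.32 in TET2KO. In both genes the TET2KO libraries fell between WT replicate 1 and the other WT libraries.

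Chst1 had the same arrangement, at 0.96, 0.491 and 0.499 TPM per 100 endothelial TPM in WT and 0.613 and 0.677 in TET2KO. Prx was at 2.95, 1.99 and 2.46 in WT and 2.79 and 2.52 in TET2KO. Emcn was nearly level over all 5 libraries, at 0.519, 0.476 and 0.484 in WT and 0.44 and 0.484 in TET2KO. Emcn is itself a broad capillary gene, and its ratio varied the least of the 6. Car4 was at 9.32, 25.1 and 5.92 in WT and 7.96 and 9.23 in TET2KO, with WT replicate 2 far above the rest.

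For none of the 6 ratios did both TET2KO libraries lie above all WT libraries, or below them, against 1.07% and 55.7% of all genes tested. With libraries scaled on the endothelial genes in edgeR, the log2 fold changes were -0.64 (SE 0.59) for Car4, 0.01 for Fibin, 0.09 for Prx, 0.06 for Emp2, -0.04 for Chst1 and -0.11 for Emcn. Under that scaling 8.52% of all genes were above 0. All 6 genes lay above the median of all genes under both scalings, and on both sides of 0 under the endothelial one. How much endothelial content contributes to the higher CPM of these genes in TET2KO was not tested.

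**Figure D4:**
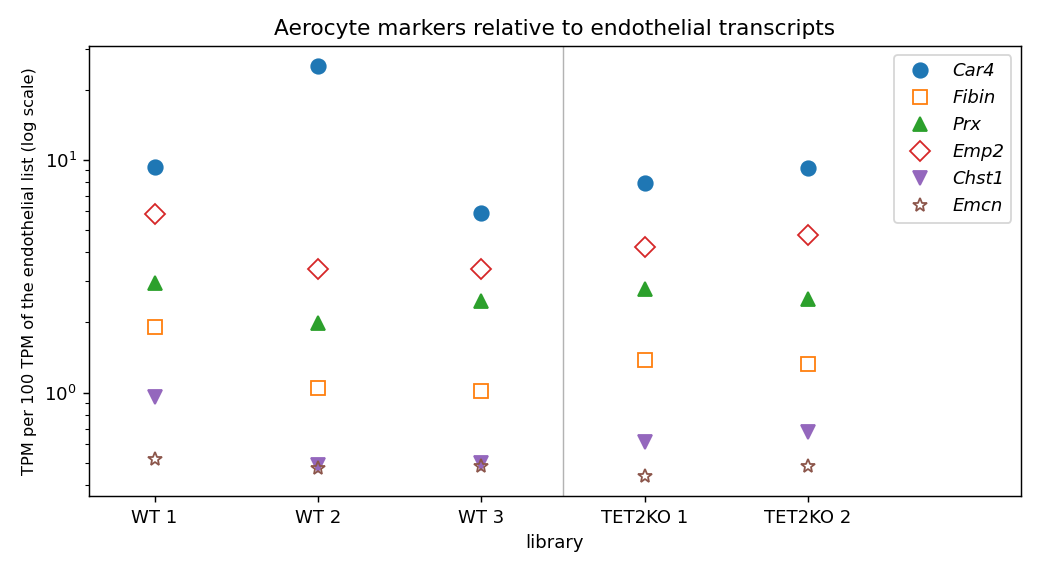
Each aerocyte marker per 100 TPM of 20 endothelial identity genes, on a log axis, in the 3 WT and 2 TET2KO libraries, with 1 symbol per gene. For Fibin, Emp2 and Chst1, WT replicate 1 is highest and the TET2KO libraries lie between it and the other WT libraries, while Emcn stays between 0.44 and 0.519.

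Emp2, Chst1 and Fibin followed one another closely across the libraries, and Emcn less so. The TPM ratio of Emp2 to Chst1 was 6.12, 6.93 and 6.78 in WT and 6.87 and 7 in TET2KO. That is a range of 1.15-fold, although each gene alone varied by more than 2-fold. Fibin and Chst1 kept their ratio within 1.16-fold, and Fibin and Emp2 within 1.18-fold, while the ratio of Chst1 to Emcn varied over 1.79-fold. The ratio of Car4 to Emp2, in contrast, was 1.59, 7.38 and 1.75 in WT and 1.89 and 1.94 in TET2KO. The departure of Car4 was confined to WT replicate 2 within these 5 libraries, with the ratio between 1.59 and 1.94 in the other 4.

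Other genes with a similar profile were ranked by the root mean square difference in centred log2 CPM over the 5 libraries, among genes of at least 10 CPM on average. Nearest to Emp2 was Tbx2, a T-box transcription factor on the list of other aerocyte genes, at a difference of 0.04, followed by Dpysl5 and Olfml2a. Dpysl5 was also among the 3 nearest to Fibin (0.06) and to Chst1 (0.06), and Emp2 itself was the third nearest to Chst1 (0.07). For comparison, the median difference of all genes from Emp2 was 0.66. The nearest to Prx were Piezo2, a mechanically gated channel gene, Disp2 and Itga3, at 0.07 to 0.08. The nearest to Emcn were Ly6a, a surface antigen gene of mouse endothelium, Sntb1 and Pard6g, at 0.05 each.

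Car4 had other neighbours. Mical2, Scamp1 and Firre lay at 0.06 to 0.08 from it, while the other 5 aerocyte markers ranked between 8227 and 9147 of 9715 genes in likeness to Car4. Nearest to the mean profile of all 6 were Hyal1, Krt80, Cald1, Ntng2, Tspan12, Tnxb, Stab1, Ctla2a, Stxbp6 and Grik5, at 0.06 to 0.09. The 3 genes nearest to Car4 were, like it, highest in WT replicate 2, and the 3 nearest to each of the other markers were lowest there. Likeness over 5 libraries is a description, since all genes share the depth and cell content of each library.

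A list of 10 other aerocyte genes had fold changes of similar size. All 10 had a log2 fold change above 0 with TMM scaling (median 0.78), and 6 of the 10 with endothelial scaling (median 0.01). None passed the adjusted threshold of edgeR, 5 had an unadjusted p under 0.05 (5.86% of all genes), and the same counts by DESeq2 were 0 and 6 (6.23% of all genes). In 8 of the 10 both TET2KO libraries were above all WT libraries, which was so for 12.4% of all genes. Of the 10, 9 were lowest in WT replicate 2, as were 5 of the 6 markers and 32.9% of all genes. So were 13 of the 20 endothelial identity genes, 5 of the 8 arterial genes and 4 of the 6 mesothelial genes. All 5 B cell genes and all 6 T cell and NK cell genes were lowest there too. General capillary genes (2 of 10), alveolar type 2 genes (1 of 9) and macrophage and monocyte genes (0 of 9) mostly were not.

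Among the 10 other aerocyte genes was Ednrb, the endothelin B receptor. It was at 127, 44.7 and 98.6 CPM in WT, against 156 and 137 CPM in TET2KO, with a log2 fold change of 0.70 (SE 0.42). Apln, the ligand apelin that aerocytes make, was at 37.6, 11.3 and 25.4 CPM in WT, against 44.6 and 31.5 CPM in TET2KO, and its groups overlapped. Kdr, the main VEGF receptor of endothelium, was at 328, 166 and 311 CPM in WT, against 416 and 471 CPM in TET2KO. These 3 genes were all lowest in WT replicate 2.

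Nkd1, an inhibitor of Wnt signalling, was at 69, 54 and 75.6 CPM in WT, against 121 and 131 CPM in TET2KO. Its log2 fold change of 0.93 (SE 0.19) was the largest of the 10, with an unadjusted edgeR p of 0.00322 and an adjusted p of 0.740. Hpgd, which degrades prostaglandins, was at 155, 166 and 215 CPM in WT, against 260 and 351 CPM in TET2KO. Hpgd was the only one of the 10 that was lowest in WT replicate 1. The remaining genes had log2 fold changes of 0.36 (Rprml), 0.78 (Cdkn2b), 0.78 (Pmp22), 0.79 (Tbx2) and 0.80 (Septin4).

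**Figure D5:**
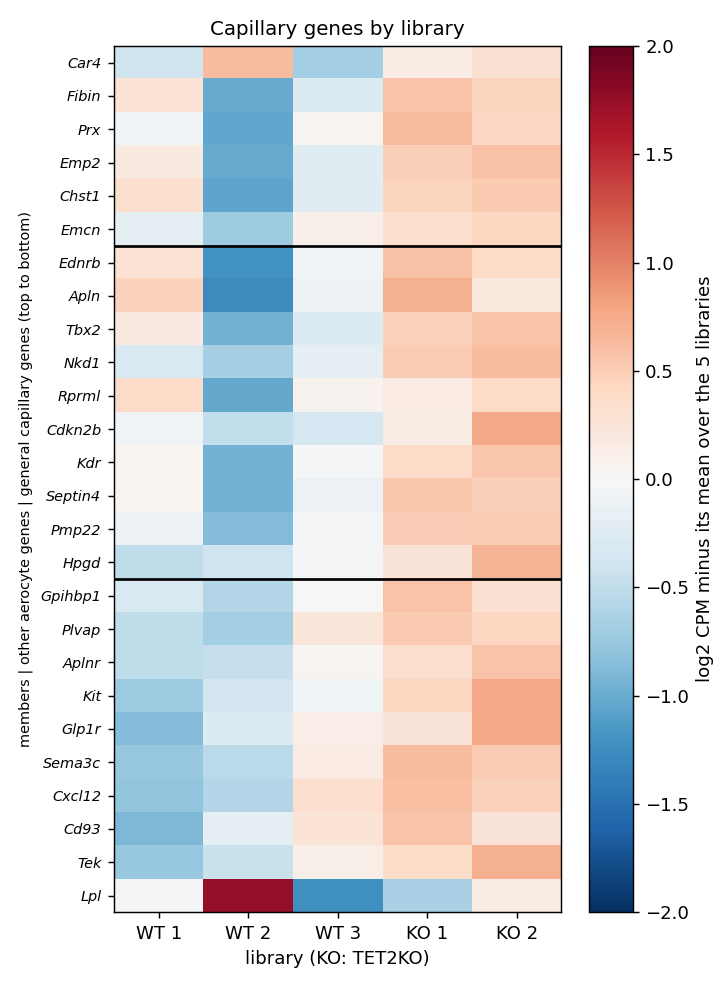
Log2 CPM of the 6 aerocyte markers, 10 other aerocyte genes and 10 general capillary genes, each minus its mean over the 5 libraries (colour, red for higher and blue for lower), with libraries in columns (KO, TET2KO). Most aerocyte genes are lowest in WT replicate 2, 7 of the 10 general capillary genes are lowest in WT replicate 1, and Car4 and Lpl are highest in WT replicate 2.

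With all libraries, general capillary genes had a median shift close to that of the markers, but they ordered the WT libraries differently. Of 10 genes, 9 had a log2 fold change above 0 with TMM scaling (median 0.77) and 7 with endothelial scaling (median 0.05). Without WT replicates 1, 2 and 3 in turn, their TMM median was 0.64, 0.68 and 1.10, against 1.00, 0.54 and 0.81 for the markers. Of the 10, 7 were lowest in WT replicate 1, which was the lowest library for 12.6% of all genes, and 2 in WT replicate 2. Kit, the stem cell factor receptor, was at 108, 139 and 169 CPM in WT, against 243 and 303 CPM in TET2KO. The exception in direction was Lpl, the lipoprotein lipase gene that macrophages also express, at 780, 2727 and 344 CPM in WT, against 510 and 888 CPM in TET2KO.

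Set against the general capillary genes without Lpl, a denominator chosen after its values were seen, the 5 aerocyte markers other than Car4 summed to 41, 16.5 and 18.8 TPM per 100 TPM in WT and 24 and 24.6 in TET2KO. The 10 other aerocyte genes summed to 80 TPM per 100 TPM in WT replicate 1, to 49.6 and 47.3 in WT replicates 2 and 3, and to 52.2 and 62 in TET2KO. By both sums WT replicate 1 was highest and the TET2KO libraries lay between it and the other WT libraries. With Car4 included, the 6 markers summed to 72.3, 72.5 and 32.9 in WT and 44.3 and 47.8 in TET2KO, and WT replicates 1 and 2 were level. Against the full general capillary list, with Lpl, the 5 markers summed to 33.4, 9.69 and 17.8 in WT and 22.5 and 22 in TET2KO. In all 4 of these comparisons the TET2KO values lay within the range of WT.

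Other vessel and surface cell types were measured beside them. All 7 venous genes had a log2 fold change above 0 with TMM scaling (median 0.53) and none of the 7 with endothelial scaling (median -0.24). All 7 were highest in TET2KO replicate 2, and their TMM median was 0.06 without that library and 0.88 without TET2KO replicate 1. Of the arterial genes, 7 of 8 were above 0 with TMM (median 0.78) and 4 with endothelial scaling (median 0.03). All 6 mesothelial genes were above 0 under both, with medians of 1.71 and 0.94. Msln, the mesothelin gene of the lung surface, was at 1.96 to 2.57 CPM in WT, against 6.22 and 11.5 CPM in TET2KO. The part of these cell types in the aerocyte values was not tested.

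The relatives of each marker did not all follow it. Of 12 other carbonic anhydrase genes tested, 8 had a log2 fold change above 0 with TMM scaling (median 0.17), and 0 of the 12 did with endothelial scaling. With 1 library left out the TMM median lay between -0.06 (without TET2KO replicate 1) and 0.31 (without WT replicate 1). Car14, a membrane isoform, was at 11, 11.8 and 14.8 CPM in WT, against 19.3 and 18.9 CPM in TET2KO, with a log2 fold change of 0.61 (SE 0.20) and an edgeR adjusted p of 0.781. Car13, a cytosolic isoform, was at 1.58, 15.5 and 1.37 CPM in WT, against 1.15 and 1.69 CPM in TET2KO. Mitochondrial Car5b was at 5.71, 27.5 and 3.27 CPM in WT, against 6.31 and 8.39 CPM in TET2KO. Both were highest in WT replicate 2, as Car4 was. Cytosolic Car2 was at 9.8 to 17.2 CPM in WT, against 19.2 and 19.4 CPM in TET2KO, and Car8, which lacks catalytic activity, at 6.16 to 8.55 CPM in WT, against 7.52 and 13.5 CPM in TET2KO.

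In the family of Emp2, Emp1 was at 176, 183 and 333 CPM in WT, against 447 and 321 CPM in TET2KO, and Pmp22, named among the aerocyte genes above, was at 85.9, 50.4 and 90.4 CPM and 129 and 131 CPM. Emp3 was placed the other way, at 86.1, 125 and 85 CPM in WT, against 78 and 75.2 CPM in TET2KO, with a log2 fold change of -0.37 (SE 0.22) and an edgeR adjusted p of 0.864. Both TET2KO libraries were below every WT library for Emp3, which was so for 12.4% of all genes.

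Among the sulfotransferases related to Chst1, Chst2 resembled it, at 11, 4.77 and 9.28 CPM in WT, against 12.5 and 13.2 CPM in TET2KO. Chst3 did not, at 181, 56.7 and 199.7 CPM in WT, against 165 and 82.9 CPM in TET2KO. Chst7 was at 3.33 to 5.31 CPM in WT, with 5.08 and 6.61 CPM in TET2KO. Chst4 was near 0 in WT, at 0.175, 0.27 and 0.222 CPM, and was at 1.03 and 1.16 CPM in TET2KO. Its log2 fold change of 2.27 (SE 0.38) had an edgeR adjusted p of 0.740.

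Partners of periaxin and related scaffold genes were measured beside Prx. Drp2 was near 0, with 1, 4 and 3 counts in WT and 6 in each TET2KO library. Utrn, which encodes utrophin, was at 185, 157 and 234 CPM in WT, against 226 and 248 CPM in TET2KO, and like Prx was lowest in WT replicate 2. Dag1, which encodes dystroglycan, was at 78, 99.5 and 86.4 CPM in WT, against 86.6 and 96 CPM in TET2KO. Ahnak, a giant scaffold gene related to Prx, was at 1683, 2619 and 1571 CPM in WT, against 1503 and 1825 CPM in TET2KO. Of the 5 partner and scaffold genes tested, 2 had a log2 fold change above 0 with TMM scaling, 0 with endothelial scaling. The TMM median was -0.23, with -0.38 without TET2KO replicate 2, -0.10 without TET2KO replicate 1 and 0.18 without WT replicate 2.

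Of 6 other sialomucins tested beside Emcn, 3 had a log2 fold change above 0 with TMM scaling, 4 with library totals and 2 with endothelial scaling. Podxl, an endothelial sialomucin, was at 278, 251 and 405 CPM in WT, against 595 and 587 CPM in TET2KO, with a log2 fold change of 0.92 (SE 0.25) and an edgeR adjusted p of 0.740. Cd34, a sialomucin of endothelium and progenitors, was at 80.7, 42.5 and 75.2 CPM in WT, against 109 and 111 CPM in TET2KO. The leukocyte gene Selplg, the ligand of P-selectin, was at 256, 359 and 213 CPM in WT, against 194 and 212 CPM in TET2KO. Podxl and Cd34, like Emcn, had both TET2KO libraries above all WT libraries, and Selplg had both below them. Each of these arrangements held for 12.4% of all genes. Cd164 and Spn, sialomucins of blood cells among others, had log2 fold changes of -0.65 and -0.10.

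The authors' deposited table, whose groups differ from the labels as described above, gave log2 fold changes of -0.20 for Car4, 0.55 for Fibin, 0.87 for Prx, 0.63 for Emp2, 0.51 for Chst1 and 0.74 for Emcn. In the authors' deposited table the adjusted p was lowest for Emcn, at 0.125, and Prx, at 0.183. The sign for Car4 in that table was the reverse of the sign for the labelled groups. None of the 6 genes was in the authors' shorter table of 217 genes.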

How the data were processed

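Poly(A) RNA of 5 lung endothelial cell libraries (3 WT, 2 TET2KO) was sequenced as paired reads of 150 bp, per the labels' protocols. The submitters' processing notes name Trimmomatic 0.36, STAR 2.5.2b, featureCounts of Subread 1.5.2, DESeq2 and the build GRCm38; the annotation release and the strand setting are not given in the sources used here. The authors deposited whole-number counts per gene, and TPM values, which scale counts by gene length and library total. The authors' deposited comparison table holds log2 fold changes, p-values and a normalized signal, counts divided by a size factor per library.

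The test was the quasi-likelihood F test of edgeR 4.0.16 on counts (TMM scaling, filterByExpr, no term but genotype) in R 4.3.3, with Benjamini-Hochberg adjustment over 18727 genes and a threshold of 0.05. CPM values use TMM-scaled totals, and log2 CPM a prior count of 2. Counting error was small for the 6 genes (322 to 12084 counts per library), and the biological coefficient of variation was 0.339. Alternatives were DESeq2 1.42.0, limma-voom (limma 3.58.1), RLE, upper quartile and library-total scaling, scaling on 20 endothelial genes, other filters (none, or 1 CPM in 2 libraries), leaving out each library, a replicate block, and limma on log2(TPM + 1) and log2(TPM + 0.1). Endothelial scaling with a library left out was added after seeing the data.

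The 6 genes, the gene lists and the alternatives were chosen with earlier results of these data known. The text names all 6, the other aerocyte genes, up to 4 relatives of each with the highest mean CPM, up to 2 genes and the defining markers of each cell type list, and the nearest profiles (3 per gene, 10 for the mean). From that rule a selection is printed. Marco, Sox10, Cdh19, Foxd3, Ncmap, Gpihbp1, Kit, Car13, Cd34 and Drp2 were named after their values were seen. Siglecf had no match in the table, and 2 genes of the Schwann cell list are not reported here. Positions are from GENCODE M21, and promoters from RefSeq on GRCm38.p6 (6 of 6 genes matched). On counts simulated for this comparison (18250 genes), edgeR recovered 11% of 2-fold and 82% of 4-fold changes with 10 false calls.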

Additional observations from a re-analysis of the deposited data

How the results depend on the processing

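None of the 6 genes passed the adjusted threshold under any alternative run. Under every alternative but endothelial scaling, each of the 6 kept a log2 fold change above 0. Leaving out each library in turn gave 0.05 to 0.78 for Car4, 0.52 to 1.11 for Fibin, 0.56 to 1.03 for Prx, 0.57 to 1.11 for Emp2, 0.45 to 1.08 for Chst1 and 0.45 to 0.85 for Emcn; the median of the 6 was 0.54 (without WT replicate 2) to 1.00 (without WT replicate 1), and that of the other aerocyte genes 0.58 to 0.93. The median of the 6 was 1.04 with limma on log2(TPM + 0.1). DESeq2 called 60 genes in all, against 0 by edgeR. Scaling on the endothelial genes reversed Car4 (-0.64), Chst1 (-0.038), Emcn (-0.11) and the median of the 6 (-0.016), and the median of the other aerocyte genes was 0.013; all genes moved to a median of -0.85, from -0.08. That scaling with a library left out, chosen after seeing the data, gave -0.99 to 0.13 for Car4, -0.16 to 0.42 for Fibin, -0.069 to 0.28 for Prx, -0.10 to 0.43 for Emp2, -0.22 to 0.41 for Chst1, -0.16 to -0.03 for Emcn, -0.15 to 0.34 for their median and -0.10 to 0.24 for that of the other aerocyte genes. It called 0 to 7829 genes in all (755 without WT replicate 2, 7829 without WT replicate 3). The cause of the calls was not tested. The share of genes above 0 was 41.6% with TMM, 51.1% with upper quartile scaling, 58.5% with library totals and 8.52% with endothelial scaling. Replicate numbers are shared between groups, but only 2 pairs exist and the labels tie them to nothing. Deviations of same-numbered libraries from their group means correlated at 0.22 and 0.49 across genes. With 2 TET2KO libraries these deviations mirror each other, so the 2 correlations are not independent. Libraries with different numbers were not compared, so the correlations do not show pairing. With the replicate block, log2 fold changes were 0.11 for Car4, 0.88 for Fibin, 1.07 for Prx, 0.94 for Emp2, 0.84 for Chst1 and 0.84 for Emcn, their median was 0.86, and 0 members passed. WT replicate 3 has no TET2KO library of its number, so in that fit it does not directly inform the fold changes. Counting error was small for these genes, at 322 counts or more per library.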
